A study of Mus musculus with 6 samples.

Results

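The genes described are the collagen chain genes of the mouse, chosen as every gene symbol made of Col, a type number, the letter a and a chain number. The rule found 44 genes among 24063 symbols. They were measured by bulk RNA sequencing of lung endothelial cells (ECs), isolated with anti-CD31 magnetic beads in 2 passes over a column from male C57BL6 mice, aged 8 weeks by the labels and older by the study's methods. Sham mice had a thoracotomy alone, and PNX mice had lost their left lung by unilateral pneumonectomy (PNX), after which the remaining lung grows; both were taken 7 days after surgery. Each group has 3 libraries, each pooled from 2 mice, with 29526989 to 81282871 counts per library.

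Collagens are the main structural proteins of the extracellular matrix, built of chains that wind round each other in a helix. Fibrillar collagens (types I, II, III, V, XI, XXIV and XXVII, 11 genes here) form the tensile fibrils of the interstitium. Type IV chains (6 genes) form the network of basement membranes on which ECs and alveolar epithelium rest, and type VI chains (6 genes) form beaded filaments at the border of the basement membrane and the interstitium. FACIT chains (9 genes) sit on the surface of fibrils or link them to other matrix, and transmembrane chains (4 genes) are anchored in the cell membrane. The other 8 genes comprise the multiplexins Col15a1 and Col18a1, the short-chain network genes Col8a1, Col8a2 and Col10a1, the anchoring fibril gene Col7a1, and Col26a1 and Col28a1. ECs make basement membrane collagen, whereas fibrillar collagens are known chiefly as products of fibroblasts.

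By their labels, replicates 1 and 2 of each group were re-used from an earlier record, and replicate 3 was not. Replicates 1 and 2 of a group lay close to counting error (chi-square per degree of freedom 1.75 in sham and 1.57 in PNX, against 67.9 to 86.4 for pairs with replicate 3), so their counts were added to make 1 sample, and each group had n = 2. The labels do not say whether samples came from separate operations or isolations, so the p-values speak only for these samples. A gene was called when edgeR's quasi-likelihood test gave an adjusted p (Benjamini-Hochberg) under 0.01 together with a log2 fold change above 1 or under -1. A fit with the record as a replicate block is given beside it because it changed the calls. Without the block, the p-values rest on the spread between the samples of a group. With it, they rest on how closely the PNX to sham difference agreed between records. Levels are CPM, counts scaled to the TMM-adjusted library size, unless TPM, which also divides by transcript length, is named.

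Most collagen chain genes had higher levels in PNX than in sham ECs, with the highest fold changes in the fibrillar class and in type VI, and lower or overlapping levels in the transmembrane class. Of 44 genes, 40 had enough counts to be tested. In 24 of the 40 all 3 PNX libraries lay above all 3 sham libraries (18.8% of all genes tested), in 4 they lay below (17.9% of all genes), and in 12 the groups overlapped. The median log2 fold change was 0.94 over the 40 genes and -0.01 over all 16598 genes tested, and 19 of the 40 had a log2 fold change above 1 (5.84% of all genes). Since the RNA is from a bulk isolate, more cells of a type and more RNA per cell cannot be told apart. Without the block, edgeR called 0 of the 40 (0% of all genes). Of the 40, 21 had an unadjusted p under 0.05, against 2076 of all genes. The lowest adjusted p among the 40 was 0.0720. Of the other tools run on these samples, limma-voom called 0 chain genes and DESeq2 called 16 higher (3.01% of all genes with an adjusted p there).

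With the replicate block, which leaves 1 residual degree of freedom, edgeR called 17 of the 40 higher in PNX (3.89% of all genes called higher) and 0 lower (1.23% of all genes called lower). The 17 were Col1a1, Col1a2, Col3a1, Col5a1, Col5a2, Col5a3, Col11a1 and Col24a1 of the fibrillar class, Col4a1 of the basement membrane, Col6a1, Col6a2, Col6a5 and Col6a6 of the beaded filaments, the FACIT genes Col14a1 and Col16a1, and the multiplexins Col15a1 and Col18a1. The same 17 were called by DESeq2 with the block (3.63% of all genes called higher) and by edgeR with the block under DESeq2's size factors (3.25%) or library size alone (3.31%). Over all genes the last 2 scalings changed the division of calls, from 645 higher and 204 lower to 540 and 84, and 550 and 79. When the 6 libraries entered as separate replicates, without the block, edgeR called 12 of 39 tested chain genes higher (2.28% of all genes), all among the 17 and without Col4a1, Col6a6, Col11a1, Col14a1 and Col15a1. That count fell to 0, as did the count over all genes, when sham replicate 1, sham replicate 2 or PNX replicate 1 was left out. It fell to 2 when PNX replicate 2 was left out (49 of all 16489 genes called). It was 12 in the absence of PNX replicate 3 (332 of 16437) and 14 in the absence of sham replicate 3 (517 of 16410). In the gene accounts that follow, log2 fold changes with an SE and adjusted p-values are from edgeR's quasi-likelihood fit with the replicate block, and "passed" refers to that fit.

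**Figure D1:**
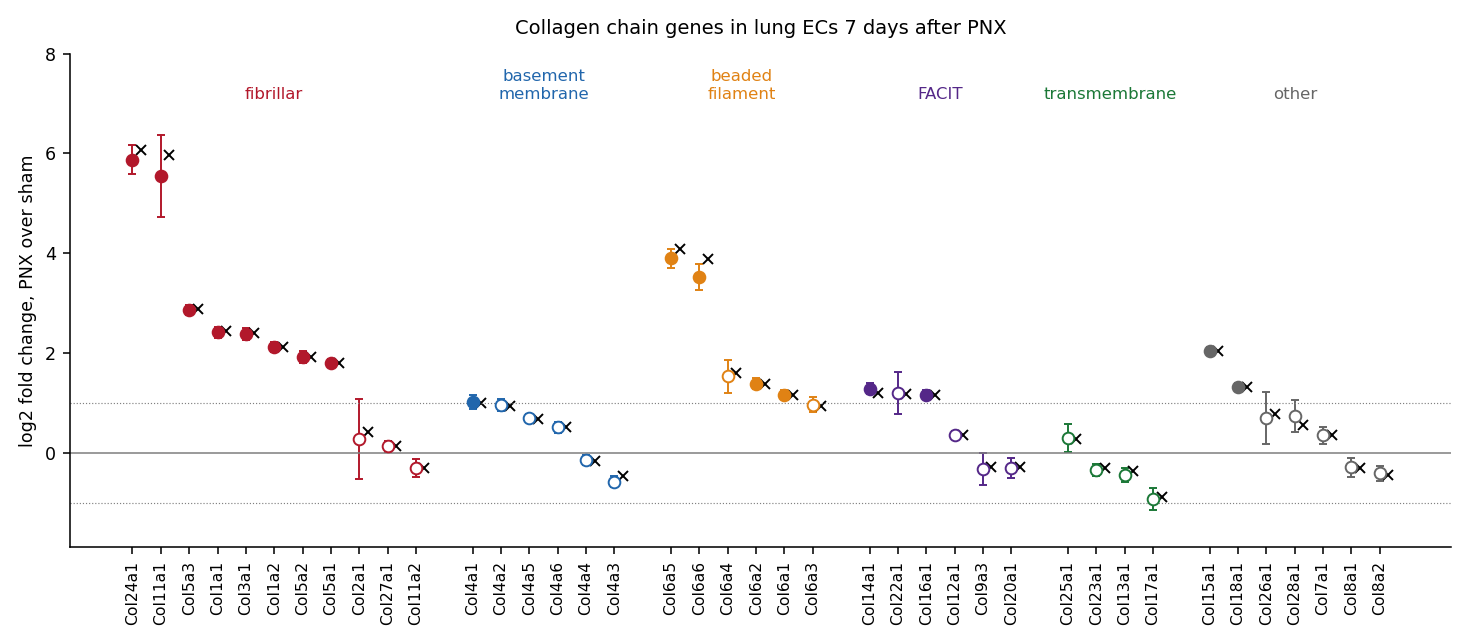
The log2 fold change of PNX over sham is on the vertical axis for the 40 tested collagen chain genes, grouped by class. Circles give the fit with the replicate block with its SE (filled where the gene passed), crosses the fit without the block, and dotted lines a log2 fold change of 1 and -1. The fibrillar genes Col24a1 and Col11a1 are highest, and 3 of the 4 transmembrane genes lie below 0.

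The stretch just before the transcription start was read for the chain genes whose RefSeq promoter window was at hand, which held for 35 of 44 genes (38 windows, GRCm38.p6). The 250 bases before the start are shown for 4 genes that passed, 3 fibrillar and 1 beaded filament, to show how unlike these stretches are. They are written 5′ to 3′ on the gene's strand, with any TATAAA (the TATA box), any CCAAT (the CAAT box) and any GGGCGG (the GC box) in capitals, on whichever strand it was found. No match in capitals overlaps another.
Col3a1, chr1:45311288-45311537, plus strand: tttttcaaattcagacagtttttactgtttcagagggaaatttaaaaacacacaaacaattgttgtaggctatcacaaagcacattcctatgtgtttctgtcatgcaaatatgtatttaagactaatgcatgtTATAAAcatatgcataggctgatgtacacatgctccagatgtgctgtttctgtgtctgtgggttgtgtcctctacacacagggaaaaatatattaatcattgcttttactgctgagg
Col5a1, chr2:27886175-27886424, plus strand: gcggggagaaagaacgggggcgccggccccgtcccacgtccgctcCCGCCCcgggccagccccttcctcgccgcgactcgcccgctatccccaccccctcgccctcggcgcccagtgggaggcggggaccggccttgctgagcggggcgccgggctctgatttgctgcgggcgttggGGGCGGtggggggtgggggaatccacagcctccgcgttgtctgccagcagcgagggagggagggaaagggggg
Col24a1, chr3:145292222-145292471, plus strand: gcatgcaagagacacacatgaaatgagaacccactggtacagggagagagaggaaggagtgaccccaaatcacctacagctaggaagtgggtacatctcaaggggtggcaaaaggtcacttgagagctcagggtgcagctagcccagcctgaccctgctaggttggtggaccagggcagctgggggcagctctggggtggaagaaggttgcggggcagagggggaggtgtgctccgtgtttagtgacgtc
Col6a5, chr9:105960644-105960893, minus strand: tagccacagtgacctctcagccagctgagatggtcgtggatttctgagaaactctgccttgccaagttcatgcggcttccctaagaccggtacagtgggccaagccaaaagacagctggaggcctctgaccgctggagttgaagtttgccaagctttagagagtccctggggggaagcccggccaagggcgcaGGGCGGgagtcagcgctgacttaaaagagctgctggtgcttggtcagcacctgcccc
The Col3a1 window held 35.2% G and C and a TATAAA that begins 117 bases before the start. The Col5a1 window held 76.4% G and C and 2 GGGCGG matches, 205 and 73 bases before the start. The Col24a1 window held 58% G and C and none of the 3 patterns, and the Col6a5 window 58.8% and 1 GGGCGG match 57 bases before the start. GGGCGG occurred in 22 of the 38 chain gene windows (57.9%) and in 32.7% of all 32851 windows, TATAAA in 5 (13.2%) and 12.4%, and CCAAT in 13 (34.2%) and 33.8%. The E-box pattern CANNTG, not capitalised, occurred in 19 (50%) and in 66.2%. These are letter matches, and binding was not measured.

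The genes of type I and type III collagen, which make the bulk of interstitial fibrils, had the highest TPM of the fibrillar chains in both groups. Col1a1 (chr11:94936224-94953042) stood at 123, 126 and 182 CPM in sham replicates 1, 2 and 3 and at 626, 632 and 1020 CPM in the PNX replicates. The lowest PNX library was thus far above the highest sham library, with a log2 fold change of 2.41 ± 0.11 (SE, adjusted p = 2.09e-05). Col1a2, the partner chain of Col1a1 in type I collagen, measured 188, 196 and 247 CPM in sham against 808, 817 and 1100 CPM in PNX libraries (log2 fold change 2.12 ± 0.11, adjusted p = 2.70e-05). For Col3a1, the only chain of type III collagen, the sham libraries gave 249, 250 and 306 CPM and the PNX libraries 1206, 1210 and 1707 CPM, a 5.20-fold difference (4.78 to 5.66 at 1 SE, adjusted p = 3.00e-05). In all 3 genes replicate 3 was the highest library of its group.

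Type V chains, which join type I chains in heterotypic fibrils and help set fibril diameter, also passed. Col5a1 ranged from 42 to 54.9 CPM in sham and from 144 to 189 CPM in PNX (log2 fold change 1.79 ± 0.08, adjusted p = 2.09e-05). Col5a2, which lies beside Col3a1 on chromosome 1 (chr1:45374321-45503282), ranged from 61.5 to 70.7 CPM and from 235 to 263 CPM (1.92 ± 0.12, adjusted p = 6.08e-05). Col5a3, lowest of the 3 by TPM, had the highest fold change of the type, from 4.54, 3.96 and 6.74 CPM in sham to 32.1, 31.6 and 47.8 CPM in PNX. Its log2 fold change was 2.86 ± 0.10 (adjusted p = 1.32e-05).

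The highest fold changes of all chain genes belonged to fibrillar genes that were nearly undetected in sham. Col24a1 (chr3:145292472-145552011) had 20, 7 and 3 counts in sham libraries and 609, 557 and 368 counts in PNX libraries. Over all libraries the PNX to sham ratio, corrected for depth, was 56.0 with an exact 95% interval of 39.1 to 83.3, which covers counting error only. Col11a1, a type XI chain that nucleates thin fibrils in cartilage and elsewhere, had 1, 0 and 0 counts in sham and 20, 13 and 20 in PNX. Its ratio was 58.1 with an interval of 9.98 to 2336, so its size is poorly set by these counts. In replicate 3 alone it was at least 7.53-fold higher, taking 3 counts as the floor for the sham library at 0. Without replicates 1 and 2 of sham, the unblocked log2 fold change of Col24a1 went from 6.07 to 6.82, and that of Col11a1 ranged from 5.19 without PNX replicate 3 to 7.85 without sham replicate 1.

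The remaining fibrillar genes did not pass. Col27a1 gave 16.8, 16.3 and 16.9 CPM in sham against 19.7, 21.1 and 16.3 CPM in PNX, and the groups overlapped. Col11a2 lay lower in all PNX libraries, at 2.59 to 2.88 CPM against 2.94 to 3.62 CPM, with a log2 fold change of -0.30 ± 0.18 (adjusted p = 0.274). Col2a1, the collagen of cartilage, had 12, 6 and 0 counts in sham and 8, 6 and 4 in PNX.

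**Figure D2:**
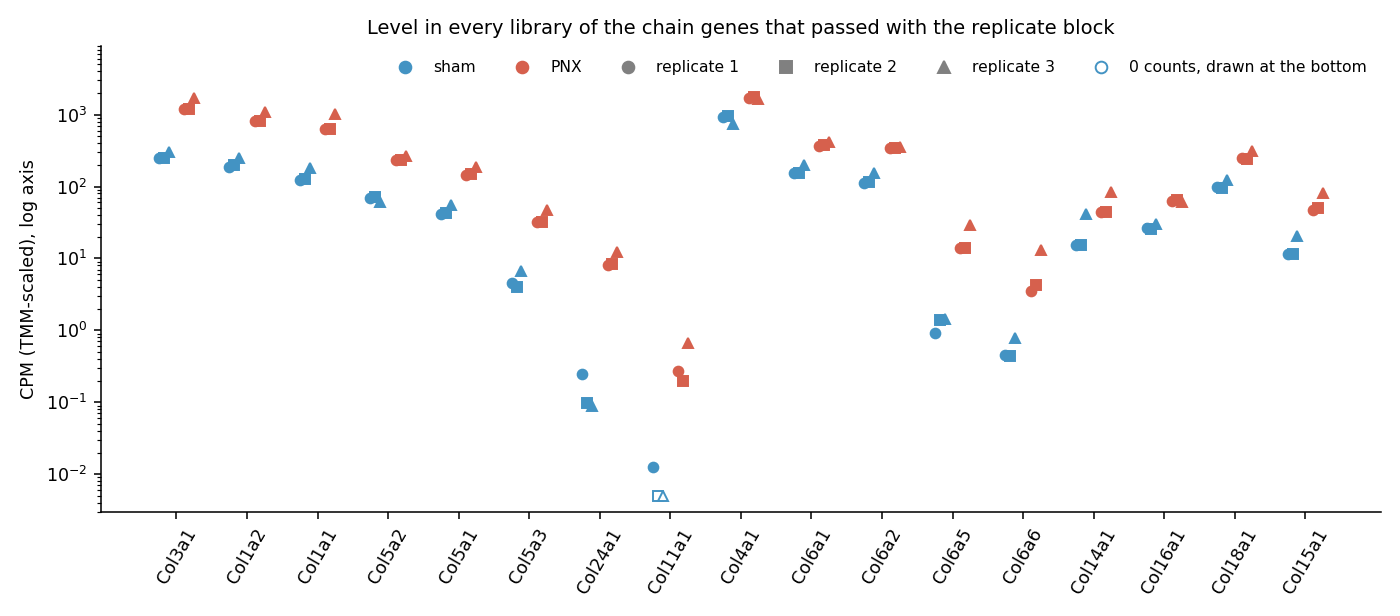
The CPM of the 17 chain genes that passed with the replicate block is plotted on a log axis, with 1 point per library (blue sham, red PNX, shape by replicate) and genes grouped by class. In each gene all 3 PNX points lie above all 3 sham points, and replicate 3 stands apart from replicates 1 and 2 in genes such as Col6a6 and Col14a1.

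The basement membrane chains were less uniform. Col4a1, which with Col4a2 forms the main type IV molecule of vascular basement membranes, had the highest TPM of all chain genes in sham ECs and measured 937, 952 and 730 CPM there. It reached 1704, 1740 and 1643 CPM in PNX libraries, a log2 fold change of 1.02 ± 0.13 (adjusted p = 0.00227), just past the fold threshold. Col4a2 measured 643, 653 and 511 CPM in sham against 1112, 1136 and 1107 CPM in PNX. Its log2 fold change of 0.96 ± 0.13 fell just short of the fold threshold (adjusted p = 0.00257). These genes stand head to head on chromosome 8, with annotated starts 21 bp apart (Col4a1 at 11312826 on the minus strand, Col4a2 at 11312805 on the plus strand), and their exons share bases there.

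Col4a5 and Col4a6 are also a head-to-head pair, on chromosome X with starts 1343 bp apart. Col4a5 ranged from 69.8 to 97.8 CPM in sham and from 117 to 150 CPM in PNX without overlap (log2 fold change 0.69 ± 0.08, adjusted p = 0.00174), below the fold threshold. Col4a6 overlapped between groups, at 7.68 to 12.3 CPM and 11.6 to 17.1 CPM. Col4a3 and Col4a4, which with Col4a5 form the type IV network of alveolar and glomerular basement membranes, were no higher in PNX. They too stand head to head, on chromosome 1 (Col4a3 from 82586921 on the plus strand, Col4a4 from 82586849 on the minus strand). Col4a3 gave 90.9, 92.4 and 30.5 CPM in sham against 71.8, 73 and 16.8 CPM in PNX, and the difference between replicate 3 and the others exceeded that between the groups. With the block its log2 fold change was -0.58 ± 0.12 (adjusted p = 0.0150). Without the block it was -0.46, and it changed sign in 2 of 8 unblocked fits that left out a library or both re-used libraries of a group. Such fits can leave the groups with unlike records. Within records the log2 ratio of Col4a3 was negative, at -0.37 in replicates 1 and 2 and -0.83 in replicate 3. Col4a4 gave 44.3, 45 and 24 CPM in sham against 38, 38.4 and 23 CPM in PNX. The 6 alveolar type 1 markers fixed as a list, led by Ager, were likewise lowest in replicate 3 of each group, with summed levels of 5233, 5292 and 2250 CPM in sham against 3945, 3990 and 1117 CPM in PNX and none at 0. Their part in the Col4a3 and Col4a4 levels was not tested.

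All 6 beaded filament chains were higher in every PNX library than in every sham library, and 4 passed. The genes Col6a1 and Col6a2 lie near each other on chromosome 10 and encode the shorter chains of the common type VI molecule. Col6a1 ranged from 154 to 201 CPM in sham and from 363 to 419 CPM in PNX (log2 fold change 1.16 ± 0.09, adjusted p = 2.35e-04). Col6a2 went from 113, 115 and 154 CPM to 338, 344 and 349 CPM (1.38 ± 0.11, adjusted p = 2.15e-04). Col6a3, the long chain, measured 172, 177 and 267 CPM and then 423, 428 and 416 CPM, and its log2 fold change of 0.97 ± 0.14 missed the fold threshold (adjusted p = 0.00410).

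The genes Col6a4, Col6a5 and Col6a6, whose chains resemble the long type VI chain, lie in a row on chromosome 9 between 105687809 and 106096783. Their mean TPM in sham was 0.130, 0.352 and 0.156, against 26.2 to 112 for the other type VI genes. Col6a5 had 0.918, 1.38 and 1.46 CPM in sham against 13.8, 14.1 and 29.3 CPM in PNX (log2 fold change 3.90 ± 0.19, adjusted p = 2.58e-05). Col6a6 had 0.459, 0.447 and 0.772 CPM and then 3.55, 4.34 and 13.3 CPM (3.52 ± 0.27, adjusted p = 1.71e-04). Both were highest in PNX replicate 3. Without that library the unblocked log2 fold change went from 4.08 to 3.44 for Col6a5 and from 3.88 to 2.73 for Col6a6. Col6a4 had 0.327 to 0.496 CPM in sham against 1.02 to 1.37 CPM in PNX (1.53 ± 0.33, adjusted p = 0.0173), and did not pass.

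Among FACIT genes, 6 of 9 were tested and 2 passed. Col16a1 gave 26.4, 25.9 and 29.7 CPM in sham against 63.1, 64.5 and 60.8 CPM in PNX, with little spread between records (log2 fold change 1.16 ± 0.09, adjusted p = 2.05e-04). Col14a1, whose product binds fibrils of type I collagen, gave 15.6, 15.4 and 41 CPM in sham against 44.3, 44 and 84.6 CPM in PNX. Its sham replicate 3 came close to PNX replicates 1 and 2, and the test passed only with the block (1.28 ± 0.11, adjusted p = 3.87e-04, against 0.488 without it). Its unblocked log2 fold change of 1.20 ranged from 0.65 without PNX replicate 3 to 2.05 without sham replicate 3. Col12a1, a close relative of Col14a1, was 34.3 to 37.1 CPM in sham against 45.4 to 46.5 CPM in PNX, a log2 fold change of 0.36 ± 0.08 (adjusted p = 0.0226). Col22a1, with 94 counts in all, was higher in every PNX library by CPM, at 0.471, 0.320 and 0.268 against 0.136, 0.209 and 0.119, and did not pass (adjusted p = 0.0896). Col20a1 was lower in every PNX library, at 2.46 to 2.75 CPM against 2.79 to 3.68 CPM, and Col9a3 overlapped, at 0.549 to 0.659 CPM against 0.594 to 0.968 CPM. Of the untested genes, Col9a1 had 0 counts in all libraries, Col9a2 had 25 in all and Col19a1 had 10.

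No transmembrane chain passed, and the class median of the log2 fold change was -0.34, the lowest of the classes. Col13a1, an adhesion-site collagen, and Col23a1 had the higher TPM, with sham means of 42.7 and 20.4. Col13a1 had 56.7, 58 and 41.2 CPM in sham against 51.8, 52.5 and 23.9 CPM in PNX. For Col23a1 the values were 49.7, 49.9 and 42.1 CPM and 47.5, 46.3 and 27.2 CPM. The groups overlapped in both genes, and PNX replicate 3 was the lowest library. Without that library the unblocked log2 fold change was 0.07 for Col13a1 and 0.02 for Col23a1, but sham replicate 3 then had no PNX partner. Within records the log2 ratios of Col13a1 were -0.16 (replicates 1 and 2) and -0.76 (replicate 3). For Col23a1 they were -0.11 and -0.60. With the block the log2 fold change was -0.44 ± 0.14 for Col13a1 (adjusted p = 0.0607) and -0.34 ± 0.12 for Col23a1 (adjusted p = 0.0908). Col17a1, a component of epithelial hemidesmosomes, was lower in every PNX library, at 7.86, 7.96 and 3.62 CPM against 10.9, 11.6 and 10.3 CPM. Its log2 fold change of -0.93 ± 0.22 did not pass (adjusted p = 0.0226). Col25a1 overlapped, at 0.67 to 0.935 CPM in sham against 0.704 to 1.17 CPM in PNX.

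The multiplexins, basement membrane-associated collagens whose C-terminal fragments include endostatin, both passed. Col15a1 measured 11.5, 11.5 and 20.4 CPM in sham against 47.6, 49.6 and 81.6 CPM in PNX. Its log2 fold change was 2.04 ± 0.09 (adjusted p = 1.73e-05), almost the same in both records (2.04 and 2.02). Col18a1, the source of endostatin, ranged from 96.4 to 123 CPM in sham and from 239 to 311 CPM in PNX (1.32 ± 0.09, adjusted p = 9.04e-05). The short-chain genes had no such difference. Col8a1 overlapped at 6.51 to 7.75 CPM and 4.73 to 7.04 CPM, and Col8a2 was lower in every PNX library at 4.97 to 5.7 CPM against 6.07 to 8.58 CPM (log2 fold change -0.41 ± 0.15, adjusted p = 0.0855). Col7a1 overlapped, with 7.38 to 8.29 CPM in sham against 8.05 to 12.8 CPM in PNX. Col28a1 overlapped, with 0.484 to 1.37 CPM in sham and 1.04 to 1.48 CPM in PNX. Col26a1 had 0.0594 to 0.298 CPM in sham and 0.323 to 0.335 CPM in PNX (log2 fold change 0.70 ± 0.52, adjusted p = 0.381), and the hypertrophic cartilage gene Col10a1 had 21 counts in all.

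Summed over genes, the collagen level went from 3255 to 3333 CPM in sham to 7896 to 9174 CPM in PNX libraries, a 2.61-fold difference of the means of 2 samples. The summed fibrillar level was 698, 708 and 878 CPM in sham against 3082, 3110 and 4359 CPM in PNX, 4.71-fold. Basement membrane chains were 1.88-fold higher, at 1378 to 1845 CPM and 2924 to 3150 CPM. Beaded filament chains were 2.23-fold higher, FACIT chains 1.84-fold and the other chains 2.43-fold. Transmembrane chains were 94.4 to 120 CPM in sham against 55.4 to 108 CPM in PNX, and overlapped. The make-up by TPM differed too. Fibrillar chains took 22.9% to 28.8% of summed collagen TPM in sham and 41.1% to 49.9% in PNX libraries, and basement membrane chains 37.3% to 49.5% and 27.4% to 34.3%, without overlap in either class.

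**Figure D3:**
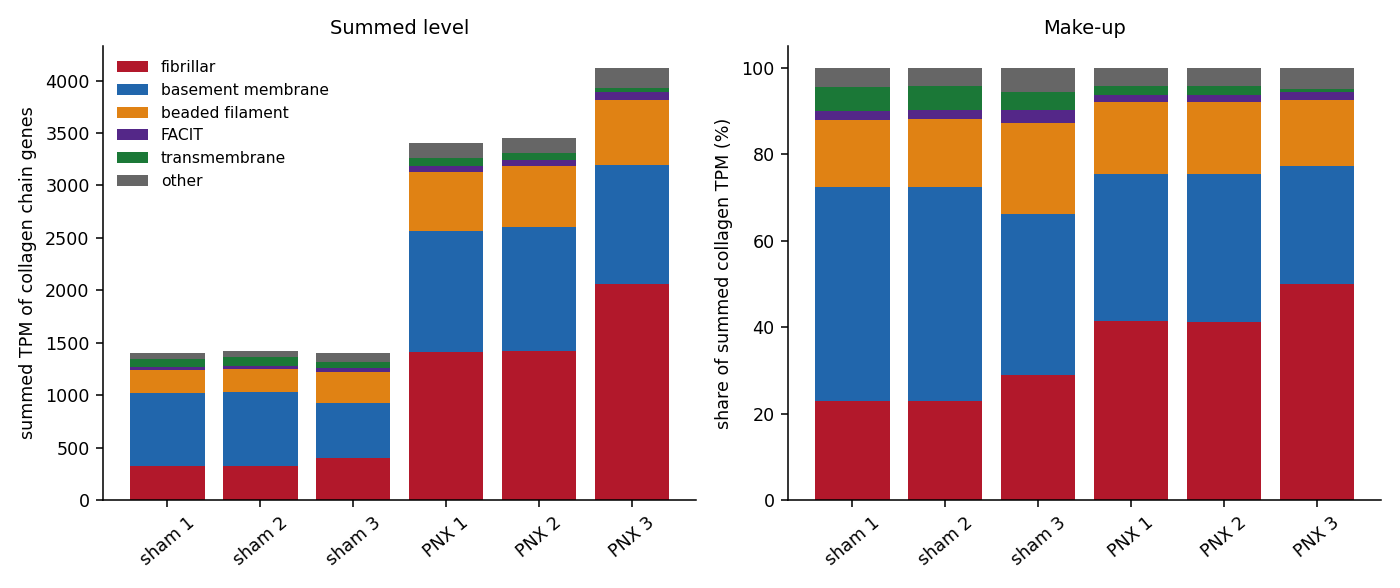
Stacked bars give the summed TPM of collagen chain genes by class in each library (left) and each class's share of that sum in percent (right). The fibrillar share (red) lies at 22.9% to 28.8% in sham and at 41.1% to 49.9% in PNX libraries.

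Per transcript length, the order of the chains also differed. In sham the highest mean TPM belonged to Col4a1 (318), Col4a2 (227), Col3a1 (125), Col6a1 (112) and Col1a2 (107). In PNX it belonged to Col3a1 (657), Col4a1 (637), Col1a2 (467), Col1a1 (441) and Col4a2 (435). The TPM ratio of Col3a1 to Col4a1 was 0.316, 0.312 and 0.498 in sham and 0.841, 0.827 and 1.23 in PNX libraries, so the top 2 places in PNX were not separated between libraries. Ratios were also taken between chains of 1 type. Col4a1 to Col4a2 was 1.39 to 1.42 in sham and 1.44 to 1.49 in PNX. Col1a1 to Col1a2 was 0.702 to 0.806 and 0.847 to 1.02, and Col6a2 to Col6a1 was 0.783 to 0.815 and 0.887 to 0.991. Col5a3 to Col5a1 went from 0.129 to 0.170 up to 0.291 to 0.349. None of these 4 ratios overlapped between the groups, whereas Col6a3 to Col6a1 (0.210 to 0.250 and 0.184 to 0.217) did, as did Col5a1 to Col5a2 (0.472 to 0.703 and 0.483 to 0.564). Col4a3 to Col4a4 (1.16 to 1.86 and 0.665 to 1.72) and Col4a6 to Col4a5 (0.159 to 0.344 and 0.152 to 0.284) overlapped too. So did Col8a1 to Col8a2 (0.765 to 0.910 and 0.703 to 1.20). For single genes by CPM, 18.8% of all tested lay above sham in all PNX libraries and 17.9% below. Col4a3 to Col4a1 was lower in PNX within each record, at 0.0745, 0.0746 and 0.0321 in sham and 0.0324, 0.0322 and 0.00787 in PNX libraries, and the groups overlapped at sham replicate 3. The ratios were not tested.

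The earlier and the later record were also read apart. The median log2 ratio of PNX over sham over the 40 genes was 0.85 in replicates 1 and 2 and 1.06 in replicate 3, computed with 0.1 CPM added and with no test. By class the medians were 1.77 and 2.18 for fibrillar, 0.56 and 0.64 for basement membrane, 1.41 and 1.51 for beaded filament, 0.63 and 0.54 for FACIT, -0.14 and -0.68 for transmembrane and 0.63 and 0.13 for the other chains. Fibrillar chains had the highest median and beaded filament chains the next highest in both records. Col6a3 had a larger ratio in the earlier record, 1.26 against 0.67, and Col6a6 in the later, 3.97 against 2.84.

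**Figure D4:**
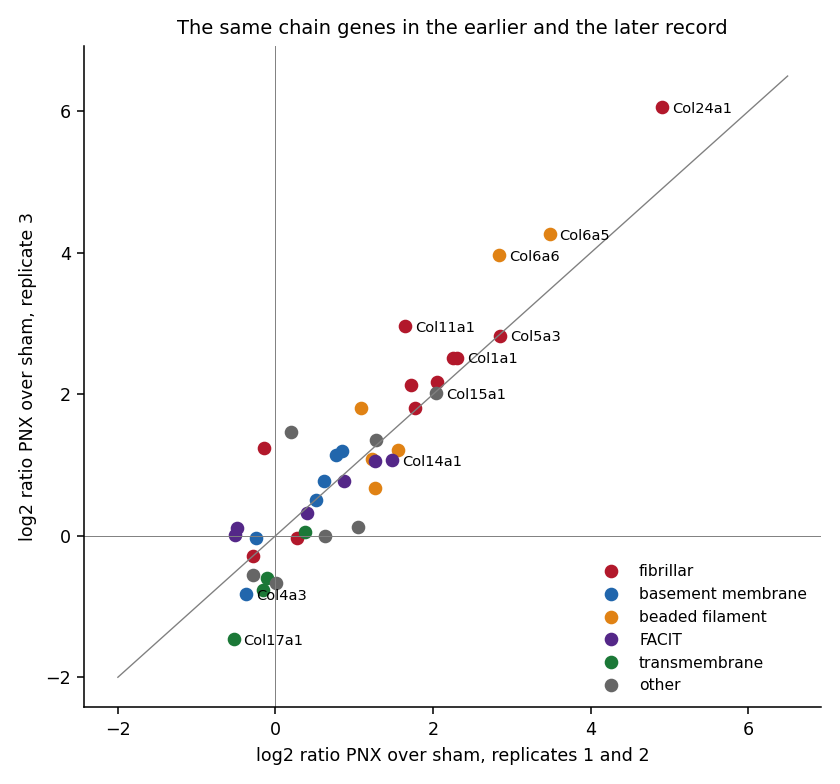
Each point is a tested collagen chain gene, with the log2 ratio of PNX over sham in replicates 1 and 2 on the horizontal axis and in replicate 3 on the vertical axis (0.1 CPM added), coloured by class. The grey diagonal marks equal ratios. The added 0.1 CPM shrinks the ratios of genes near 0 CPM, such as Col11a1, at 1.65 and 2.96 here against 5.55 in the fit with the block. Col24a1, at 4.91 and 6.06, is farthest from the origin, and Col17a1, at -0.53 and -1.46, is lowest.

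Genes that make, bind and degrade collagen were read as fixed lists, and edgeR without the block called 0 genes in each. The gene with the highest CPM of a list is named as the most abundant or as leading it. Of 32 symbols listed for collagen assembly, 27 were present among the measured symbols. With the block, 6 of 26 tested genes of collagen assembly were called higher and 0 lower (3.89% and 1.23% of all genes). They were P4ha3 (a prolyl hydroxylase subunit), the chaperone Fkbp10, the N-propeptidase Adamts2, the cross-linking enzymes Loxl1 and Loxl2, and Sparc, a collagen-binding glycoprotein and the most abundant gene of the list, at 969 to 1497 CPM in sham against 2869 to 3257 CPM in PNX. The collagen chaperone Serpinh1 had a log2 fold change of 0.99 (adjusted p = 0.00198) and did not pass the fold threshold. Of 10 collagen receptor genes, with Itgb1 the most abundant, 0 were called. Of 7 tested collagen-degrading genes, 5 were called higher (Mmp2, Mmp8, Mmp13, Mmp14 and Ctsk), with Mmp2 the most abundant. Of 12 tested fibril-associated genes, Dcn, Lum, Aspn, Fn1 and Thbs2 were called higher, and Fn1, the most abundant, had 2567 to 5063 CPM in sham against 11909 to 15728 CPM in PNX.

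Markers of ECs and of other cells in the isolate were also read as fixed lists, and the counts given are from the fit with the replicate block. That fit called 3.89% of all genes higher and 1.23% lower. The 14 endothelial markers, led by Pecam1, were all detected, and 0 were called. Their summed level was lower in every PNX library, at 9673 to 11691 CPM in sham against 8414 to 9645 CPM in PNX. Without the block, 11 had a log2 fold change below 0 and 3 above. Plvap (-0.65, adjusted p = 0.00434), Ptprb (-0.74, 0.00405) and Gpihbp1 (-0.72, 0.00126) passed the adjusted p with the block and missed the fold threshold. Of 14 fibroblast markers without collagens, Dcn, Lum and Mfap5 were called higher and Inmt lower, and their sum, led by Npnt, was 4038 to 4143 CPM in sham against 3403 to 4769 CPM in PNX. Npnt alone gave 2200 to 2328 CPM in sham and 1251 to 2425 CPM in PNX. Without the block, 10 of the 14 had a log2 fold change above 0 and 4 below. Of 7 mesothelial markers, led by Gpm6a, 5 were called higher (Msln, Upk3b, Wt1, Lrrn4 and Bnc1), with sums of 202, 198 and 457 CPM in sham against 387, 387 and 997 CPM in PNX. Of 12 smooth muscle and pericyte markers, with Pdgfrb the most abundant, only Rgs5 was called, and their sums overlapped at 473 to 612 CPM and 440 to 616 CPM. Of 7 leukocyte and macrophage markers, led by Ptprc, Marco and C1qb were called higher, and the sums were 857 to 1849 CPM in sham against 1249 to 1886 CPM in PNX. None of the genes in these lists was at 0 in all libraries. The part of these cells in the fibrillar, type VI and FACIT levels was not tested.

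In the epithelial lists the calls went the other way, with alveolar type 2 (led by Sftpc) 3 of 7, alveolar type 1 1 of 6 and club cell markers (led by Scgb1a1) 4 of 4 called lower and 0 higher. Of all genes, 1.23% were called lower. Without the block, 5 alveolar type 1 markers had a log2 fold change below 0 and 1, Pdpn, above. The alveolar type 1 sums overlapped, at 2250 to 5292 CPM in sham against 1117 to 3990 CPM in PNX. The club cell sum was 2417, 2427 and 4421 CPM in sham against 1190, 1152 and 1138 CPM in PNX. Of 5 tested chondrocyte markers, led by Matn4, only Hapln1 was called higher. Of 6 adipocyte markers, with Cidec the most abundant, Adipoq, Cfd and Car3 were called higher, though the sums overlapped at 29.2 to 56.2 CPM and 44.2 to 47.4 CPM. Of 3 tested Schwann cell markers, led by Scn7a, 0 were called. The part of epithelial cells in the Col17a1 level was not tested.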

How the data were processed

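The authors sequenced stranded poly(A) libraries of lung ECs in paired-end mode and aligned the reads to mm10 with STAR, as named in the submitters' processing notes. The authors deposited for each library the raw count of each RefSeq transcript, with FPKM and TPM values. By the study's methods, reads were counted on the Basepair platform. The rule for shared reads, any use of strand and the annotation release are not stated in those methods or the labels. For each symbol, the deposited counts of its transcripts were summed, so a read counted on several transcripts entered more than once. Of 44 chain genes, 8 had several transcripts, and for 3 of them (Col2a1, Col9a1 and Col25a1) transcripts had identical counts. The transcripts of Col17a1, Col4a5, Col6a3 and Col18a1 had similar counts. In sham replicate 1 these were 441 and 441, 3945 and 3940, 7109 and 6723, and 4149 and 3887. The CPM of these genes may therefore count most reads more than once, as may the summed levels of their classes. For 13 of the 44 genes, exon bases overlap another annotated gene (GENCODE vM21, GRCm38), with which reads may be shared. Deposited TPM entered levels and ratios, with no test, and deposited FPKM values entered no calculation. The TPM of a single gene is that of its transcript with the highest total count, whereas class sums of TPM add all transcripts.

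Samples were grouped from the labels. Replicates 1 and 2 of each group were summed. The quasi-likelihood test of edgeR 4.0.16 (R 4.3.3) was applied to the summed counts after filterByExpr and TMM scaling, with Benjamini-Hochberg adjustment over all genes tested. CPM use the TMM-scaled library size. DESeq2 1.42.0, limma 3.58.1 (voom), other scalings and filters, the highest transcript per symbol, 6 separate libraries, leaving out each library and the replicate block were alternatives. SEs of edgeR are the fold change divided by the square root of F, an approximation. The labels pair the groups by record, and over 11659 genes, which are not independent, the difference between records in sham and in PNX had Pearson's r = 0.789 and Spearman's rho = 0.784. The biological coefficient of variation was 0.236 without the block and 0.0973 with it.

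On simulated data for this comparison (16598 genes, 200 of them changed by 2 on the log2 scale), edgeR called 200 changed and 0 unchanged genes with the block and 0 changed genes without it. Both groups were given exactly the same difference between records, as the block assumes, and genes with low counts were left unchanged. The simulation therefore checks the code and cannot show how reliable the calls on the measured data are. All genes matching the symbol rule are named, with values in every library or their range where they had at least 50 counts in all. Of the other genes, the most abundant of each list and the called genes are named. The members, classes and lists were chosen with earlier results of these data known. Exact intervals are Clopper-Pearson intervals at 95%. Python 3.11.15 was used for tables and figures.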

Additional observations from a re-analysis of the deposited data

How the results depend on the processing

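The number of chain genes called depended on the fit. It was 0 without the replicate block, and 17 with the block, with the block in DESeq2, under DESeq2's size factors, library size alone or the highest transcript per symbol, and 18 with the block at an adjusted p under 0.05 or with 6 separate libraries. It was 12 with 6 libraries and no block, 17 there in DESeq2 and 16 in DESeq2 on 4 samples. Leaving out libraries gave 0 to 14. Calls over all genes, in either direction, moved too. With the block they were 849 of 16598, 810 in DESeq2, 624 under DESeq2's size factors and 629 by library size alone. They were 1186 at an adjusted p under 0.05 and 1104 of 16263 with 6 libraries. Without the block they were 409 of 16263 with 6 libraries, 921 there in DESeq2 and 572 in DESeq2 on 4 samples. The highest-transcript fit with the block and the adjusted p of 0.05 with the block were chosen after seeing the data. The count of chain genes stayed at 0 without the block under every scaling and filter tried and in limma-voom. The cause of these differences was not tested.

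Class medians kept their sign in every fit except the transmembrane median. The fits that left out libraries had no block, and those without a replicate 3 kept only re-used libraries in that group. Over the fits that left out 1 library, the transmembrane median ranged from -0.51 without sham replicate 3 to 0.043 without PNX replicate 3, basement membrane from 0.53 to 0.64, beaded filament from 1.38 to 1.55 and FACIT from 0.64 to 1.02. Without PNX replicates 1 and 2, the median was 2.49 for fibrillar, 1.60 for beaded filament, 0.36 for FACIT and -0.89 for transmembrane chains. Without sham replicates 1 and 2, it was 0.75 for basement membrane and 0.48 for FACIT chains. The FACIT median was 1.16 with no filter on low counts and 0.36 with at least 10 counts in every library, which changed the genes tested from 6 to 8 and 5. The log2 ratio of the summed FACIT level was 0.88 by CPM and 0.95 by TPM. The median over all chain genes stayed between 0.89 and 1.09. No chain gene changed sign under the scalings tried. With 2 samples per group the precision rests on few samples, and depth limits Col2a1, Col9a2, Col10a1, Col11a1, Col19a1, Col22a1 and Col26a1, each under 100 counts in all libraries.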
